A study of Mus musculus with 4 samples.

Results

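The Foxo transcription factors, 2 further forkhead factors linked to quiescence and growth, and 4 genes known to be controlled by FOXO were described in mouse muscle stem cells (MuSCs) of overloaded and sham-operated muscle. These 9 genes, of 19353 in the count table, were found by gene symbol: Foxo1, Foxo3, Foxo4, Foxk1, Foxm1, Fbxo32, Trim63, Txnip and Sesn1. All 9 were among the 7228 genes with enough counts to be tested.

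The cells came from plantaris muscle of Pax7-CreERT2:Rosa-YFP mice, in which tamoxifen lets a Cre recombinase made under the control of Pax7, the MuSC transcription factor, switch on yellow fluorescent protein (YFP). Muscle was taken 4 days after tenotomy, in which the tendons of the synergist muscles are cut so that the plantaris is overloaded, or after sham surgery. All groups shared genotype and tamoxifen, and the ages of the mice were not given in the sources used here. A cell marked in this way keeps YFP when it later loses Pax7, so that the sort also holds descendants of MuSCs.

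Each library was made by CEL-Seq2 from 1 tube of 100 sorted cells, and each count is a unique molecular identifier (UMI), that is, 1 captured poly(A) end. There were 2 sham and 2 overloaded libraries. In all, 269683 and 260488 UMIs were counted in sham and 387955 and 483528 in overloaded libraries. Levels are given as UMIs and as normalized CPM, that is, counts scaled by TMM factors to a common total. A count of 3 UMIs in these scaled units came to 13.1 and 13.6 CPM in the sham libraries and to 7.80 and 6.08 CPM in the overloaded libraries. Nothing in the labels says that the libraries of a group came from separate mice, so that p-values measure the spread between these libraries, which may be technical. The counts of the sham pair differed little beyond sampling noise (chi-square per degree of freedom of 1.30), as did those of the overloaded pair (1.55), against 7.40 to 9.39 across the groups.

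FOXO proteins bind DNA in the nucleus when growth factor signalling is low, and AKT keeps them in the cytoplasm by phosphorylation when it is high. They switch on genes that arrest the cell cycle, limit oxidative stress and break down protein, and in MuSCs they help to maintain quiescence. FOXK1 is a myogenic-lineage forkhead factor that competes at FOXO sites, and FOXM1 drives genes of the later cell cycle and is made by proliferating cells. RNA levels say nothing of phosphorylation or location of these proteins.

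Of the 9 genes, 4 rose in the overloaded libraries and 1 fell at an adjusted p of 0.1 (edgeR's quasi-likelihood test, Benjamini-Hochberg adjustment over all 7228 genes). Foxm1, Fbxo32, Trim63 and Txnip rose, Foxo3 fell, and Foxo1, Foxo4, Foxk1 and Sesn1 did not pass. Among all genes tested, 25.8% rose and 26.3% fell, and 52.1% passed in either direction. Foxm1, Fbxo32 and Trim63 had enough counts for the test through the overloaded libraries alone, so that their share of calls is not read against this background. The other 6 genes passed the filter in both groups.

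**Figure D1:**
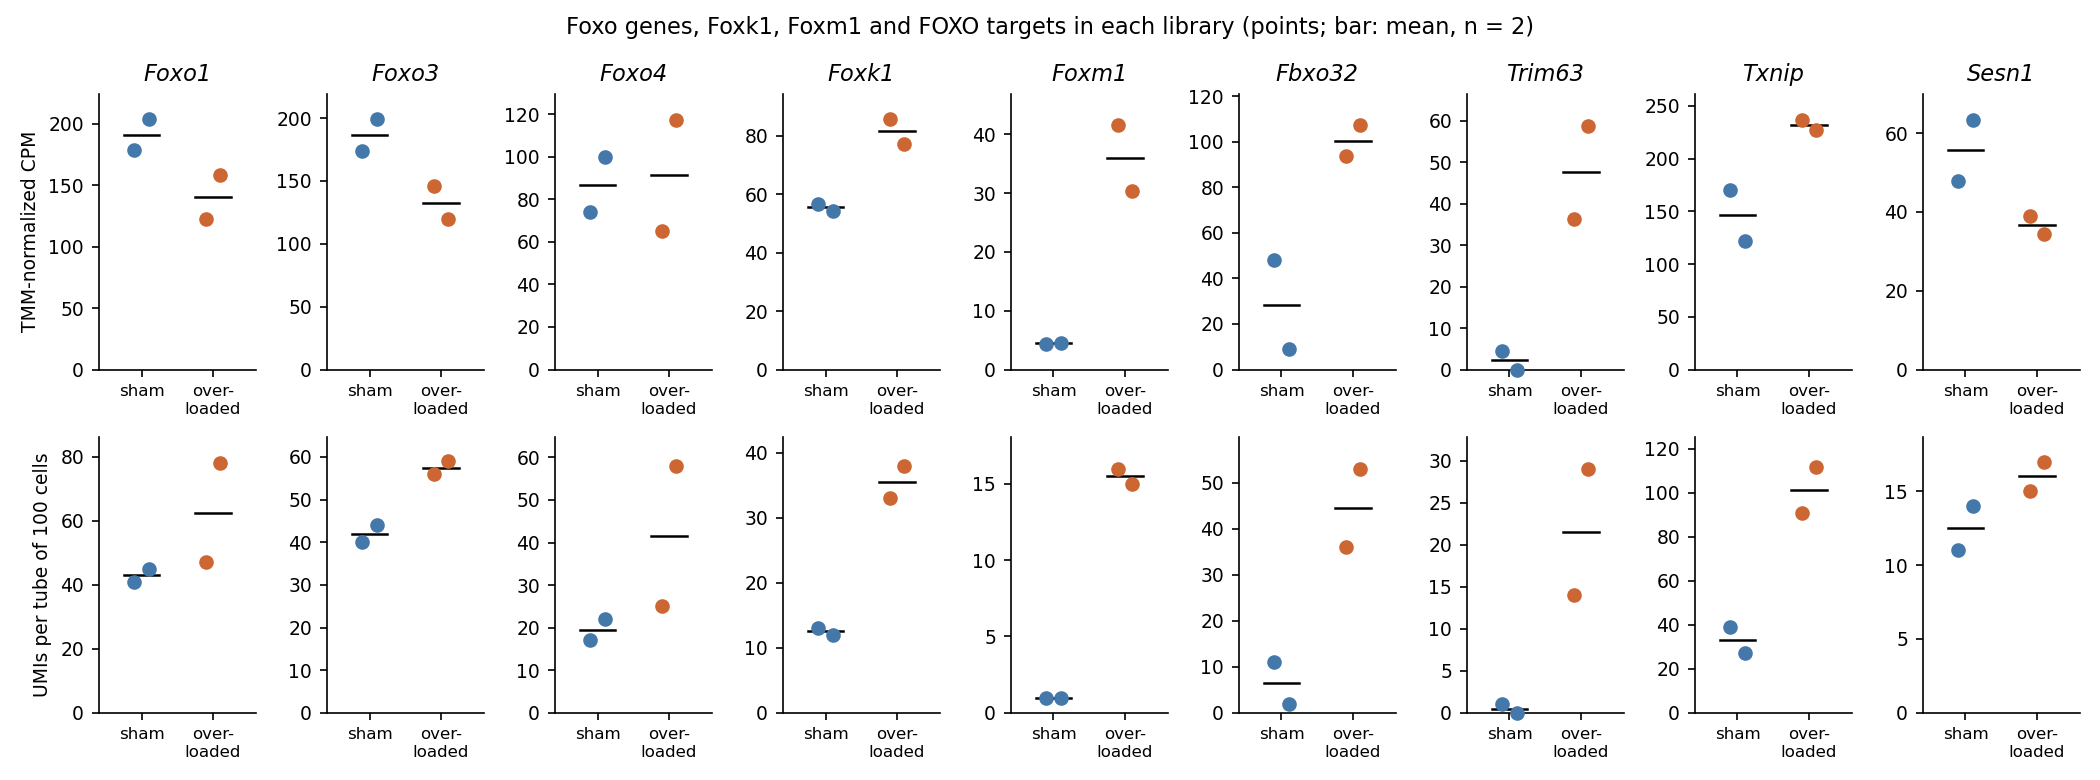
Normalized CPM (top row) and UMIs per tube (bottom row) of the 9 genes in each library (1 point per library, bars at the group means, 2 libraries per group, linear axes that start at 0). In CPM, Foxk1, Foxm1, Fbxo32, Trim63 and Txnip have both overloaded points above both sham points. Foxo1, Foxo3 and Sesn1 have them below in CPM, and the groups of Foxo4 overlap. As UMIs per tube, all 9 genes have both overloaded points above both sham points.

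Foxo3 (GRCm38 chr10:42181841-42276755, minus strand) encodes a FOXO factor that is known to be needed for MuSC self-renewal and return to quiescence. Its UMIs numbered 40 and 44 in sham and 56 and 59 in overloaded libraries. In normalized CPM this was 174 and 199 against 146 and 119, so that both overloaded libraries lay below both sham libraries. Mean levels were 187 ± 17.8 CPM in sham and 133 ± 18.5 CPM in overloaded libraries (SD, n = 2 each), and Foxo3 fell with a log2 fold change of -0.50 ± 0.22 (SE; 95% interval -0.97 to -0.04; edgeR adjusted p = 0.0754). The call was lost with DESeq2 (adjusted p = 0.401), with library sizes alone (edgeR adjusted p = 0.425), with offsets fitted against abundance (edgeR adjusted p = 0.13), without sham library 2 (edgeR adjusted p = 0.291) and without overloaded library 2 (edgeR adjusted p = 0.329).

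Foxo1 (chr3:52268336-52353221, plus strand) encodes the FOXO factor best known for control of metabolism by insulin. Its values lay close to those of Foxo3, with 41 and 45 UMIs in the sham libraries and 47 and 78 in the overloaded libraries, or 179 and 204 against 122 and 158 CPM. Again the overloaded libraries were both lower, with means of 191 ± 18.0 and 140.1 ± 25.3 CPM (SD, n = 2 each). The log2 fold change of -0.43 ± 0.22 (SE; 95% interval -0.90 to 0.04) did not pass (edgeR adjusted p = 0.126). It passed without overloaded library 2, at -0.64 (edgeR adjusted p = 0.0731), and with the at-least-10 filter, at -0.50 (edgeR adjusted p = 0.0776). A fall in Foxo3 and none in Foxo1 was therefore not shown, and the difference between the genes was not tested. The gene Gm38034, which overlaps Foxo1 on the same strand, had 1 to 4 UMIs per library.

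Foxo4 (chrX:101254528-101260873, plus strand), a further FOXO gene with an AKT-regulated product, had 17 and 22 UMIs in sham and 25 and 58 in overloaded libraries. The overloaded libraries themselves lay apart, at 65.0 and 117 CPM, on either side of the sham libraries at 74.0 and 99.7 CPM. The log2 fold change was 0.11 ± 0.34 (SE; 95% interval -0.60 to 0.82; edgeR adjusted p = 0.816), and the interval leaves room for a change of either sign. It was -0.41 without overloaded library 2 and -0.09 without sham library 1, whereas with no scaling Foxo4 was higher and passed (1.085, edgeR adjusted p = 0.0352).

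Foxo6, the remaining gene of the family and not among the 9, had 5 and 0 UMIs in sham and 8 and 13 in overloaded libraries and had too few counts for the test. The 0 allows up to 3 UMIs, or 13.6 CPM. Over the 4 Foxo genes together, the UMIs came to 103 and 111 in sham and 136 and 208 in overloaded libraries, and the summed level was 448 and 503 against 354 and 421 CPM. The groups did not overlap in UMIs, which were more in overloaded tubes, nor in TMM-scaled CPM, which was lower. As a share of all UMIs of a library they did overlap, at 0.0382% and 0.0426% in sham and 0.0351% and 0.0430% in overloaded libraries.

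Each UMI marks 1 poly(A) end and is not scaled by length, and the genes are set side by side as counted. Whether the RNA of each gene was captured and assigned equally well was not tested, so that these are shares of counts. Foxo1 made up 39.8% (Wilson 95% interval 30.9 to 49.5) and 40.5% (31.9 to 49.8) of the Foxo UMIs in the sham libraries and 34.6% (27.1 to 42.9) and 37.5% (31.2 to 44.2) in the overloaded libraries. Foxo3 made up 38.8% and 39.6% of them in sham libraries, 41.2% in overloaded library 1 and 28.4% (22.7 to 34.8) in overloaded library 2. Foxo4 made up 16.5% and 19.8% in sham libraries, 18.4% in overloaded library 1 and 27.9% (22.2 to 34.3) in overloaded library 2. In every library Foxo1 and Foxo3 did not differ beyond these intervals, which cover counting error only, while Foxo4 lay below both in 3 of the 4 libraries and level with Foxo3 in overloaded library 2.

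The scale matters for every one of these genes, because overloaded tubes held more UMIs in all. As UMIs per tube, all 9 genes were higher in both overloaded libraries than in both sham libraries, as were 72.7% of all genes tested, against 7.9% that were lower. In normalized CPM the groups were apart with overloaded higher for 5 of the 9 (Foxk1, Foxm1, Fbxo32, Trim63 and Txnip; 37.5% of all genes tested) and with overloaded lower for 3 (Foxo1, Foxo3 and Sesn1; 35.4%). The median log2 fold change over all genes was 0.05 with TMM, 0.33 with library sizes alone and 1.01 with no scaling, and each change reported here is relative to the TMM scale. With no scaling, the log2 fold changes of Foxo1, Foxo3 and Sesn1 were 0.54, 0.45 and 0.35, below that median, and none passed the test. Of the genes called, 49.6% were higher with TMM, 66.6% with library sizes alone and 93.1% with no scaling. In libraries made from many cells, fewer cells with an RNA and less of it per cell cannot be told apart.

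**Figure D2:**
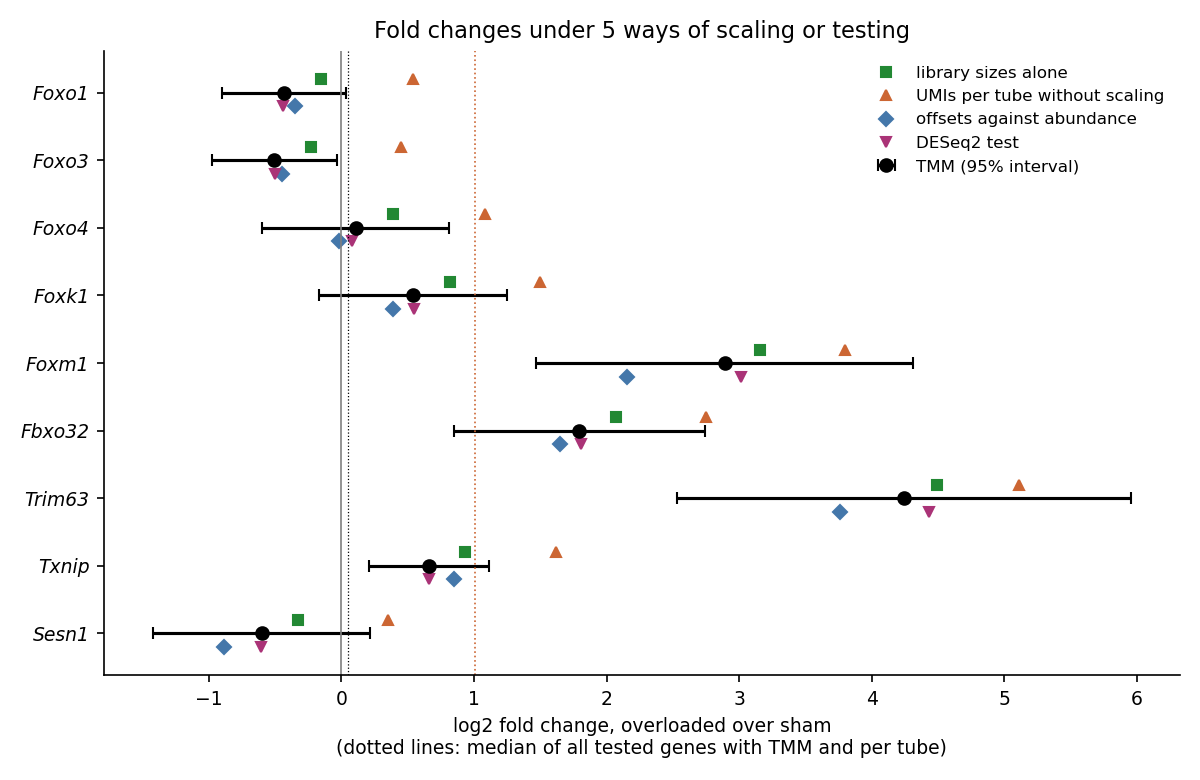
Log2 fold changes of the 9 genes, overloaded against sham, under 5 treatments of scaling and test (bars are 95% intervals with TMM, and dotted lines mark the median of all genes tested with TMM, 0.05, and as UMIs per tube, 1.01). The points of Foxk1, Foxm1, Fbxo32, Trim63 and Txnip lie above 0 under each treatment drawn, though the TMM interval of Foxk1 includes 0. Those of Foxo1, Foxo3 and Sesn1 lie below 0 except as UMIs per tube.

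Foxk1 (chr5:142401497-142462011, plus strand) gave 13 and 12 UMIs in sham and 33 and 38 in overloaded libraries. The sham libraries were close, at 56.6 and 54.4 CPM, and both overloaded libraries were higher, at 85.8 and 77.0 CPM. The means were 55.5 ± 1.57 and 81.4 ± 6.26 CPM (SD, n = 2 each), yet at these counts the log2 fold change of 0.54 ± 0.34 (SE; 95% interval -0.17 to 1.25) did not pass (edgeR adjusted p = 0.203). It passed with library sizes alone (0.82, edgeR adjusted p = 0.0542) and with no scaling (1.50, edgeR adjusted p = 0.0043).

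The related gene Foxk2, with 7 and 13 UMIs in sham and 28 and 42 in overloaded libraries, rose by 0.83 ± 0.38 on the log2 scale (SE; edgeR adjusted p = 0.083). Foxk2 passed the filter through the overloaded libraries alone, and its call was lost without sham library 1 (0.43, edgeR adjusted p = 0.486) and without overloaded library 2 (0.71, edgeR adjusted p = 0.246), with DESeq2 (adjusted p = 0.388), with offsets fitted against abundance (edgeR adjusted p = 0.171), in thinned counts (edgeR adjusted p = 0.167) and with the at-least-10 filter (edgeR adjusted p = 0.11). The intervals of Foxk1 and Foxk2 overlap, and the difference between them was not tested.

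Of 18 other forkhead genes, Foxk2 and Foxo6 included, 9 were tested, and 2 rose, 3 fell and 4 did not pass, with a median log2 fold change of 0.01. Over all genes tested, 25.8% rose and 26.3% fell, shares close to these. Foxj3 rose by 0.67 ± 0.31 (SE) on the log2 scale (edgeR adjusted p = 0.091), from 14 and 14 to 37 and 50 UMIs. Its call was lost with DESeq2 (adjusted p = 0.419), with the replicate block (edgeR adjusted p = 0.104) and without any 1 of the 4 libraries (edgeR adjusted p = 0.145 to 0.246). Foxn3, which represses cell cycle genes, fell by 0.85 ± 0.19 (edgeR adjusted p = 0.0017), with 80 and 105 UMIs in sham and 95 and 105 in overloaded libraries. Foxp4 fell by 0.75 ± 0.28 (edgeR adjusted p = 0.0412), with 34 and 24 against 33 and 34 UMIs, and Foxp2, which passed the filter through the sham libraries alone, fell by 1.68 ± 0.39 (edgeR adjusted p = 0.0021). With no scaling Foxn3 and Foxp4 were level or slightly higher (0.11 and 0.21 on the log2 scale), which no test called. The call of Foxn3 was also lost with offsets fitted against abundance (-0.35, edgeR adjusted p = 0.122), and that of Foxp4 without sham library 1 (-0.50, edgeR adjusted p = 0.317), without overloaded library 2 (-0.58, edgeR adjusted p = 0.225) and with DESeq2 (adjusted p = 0.293).

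Foxm1 (chr6:128362967-128376146, plus strand) was nearly at 0 in sham libraries. It had 1 UMI in each sham library and 16 and 15 in the overloaded libraries, or 4.35 and 4.53 against 41.6 and 30.4 CPM, with both overloaded libraries far above both sham libraries. The ratio of normalized UMIs was 7.95 (exact binomial 95% interval 2.02 to 68.5, counting error only). The fitted log2 fold change was 2.89 ± 0.67 (SE; edgeR adjusted p = 0.0023), and DESeq2 gave an adjusted p of 0.103. With offsets fitted against mean log abundance the sign turned and the call was lost (-0.062, edgeR adjusted p = 0.973). Tex52, which overlaps Foxm1 on the same strand, had 3 UMIs in overloaded library 1 and 0 elsewhere.

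The genes that FOXM1 is known to switch on moved with it. Of 23 listed, 19 were tested and all 19 rose, with a median log2 fold change of 4.20, beside 0.05 over all genes. All 19 passed the filter through the overloaded libraries alone, which selects genes with more counts there, so that this count is only a description. Top2a, which untangles DNA before division, went from 2 and 6 to 124 and 176 UMIs (4.23 ± 0.33, SE; edgeR adjusted p = 1.4e-07). Cks1b, a partner of cyclin-dependent kinases, went from 8 and 15 to 85 and 105 UMIs (2.08 ± 0.29; edgeR adjusted p = 2.6e-05). The 23 genes summed to 37 and 48 UMIs in sham and 852 and 1104 in overloaded libraries. Per 1000 of those UMIs, Foxm1 had 27.0 and 20.8 UMIs in sham and 18.8 and 13.6 in overloaded libraries, where each sham value rests on 1 molecule of Foxm1.

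Kinases, cyclins, MuvB subunits, pocket proteins and E2F factors that work with or on FOXM1, repressors of cell cycle genes among them, were listed separately. Of 19, 13 were tested, 9 rose and 4 did not pass (median log2 fold change 1.15), and all 4 that passed the filter in both groups rose, beside 25.8% of all genes tested and 708 of the 4745 that passed in both. Cdk4, the cyclin D kinase, went from 36 and 35 to 149 and 189 UMIs (1.29 ± 0.19, SE; edgeR adjusted p = 4.8e-05). Its partner Ccnd1 went from 49 and 40 to 139 and 135 UMIs (0.67 ± 0.21; edgeR adjusted p = 0.0136), a call lost with DESeq2 (adjusted p = 0.14) and without sham library 2 (edgeR adjusted p = 0.104).

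**Figure D3:**
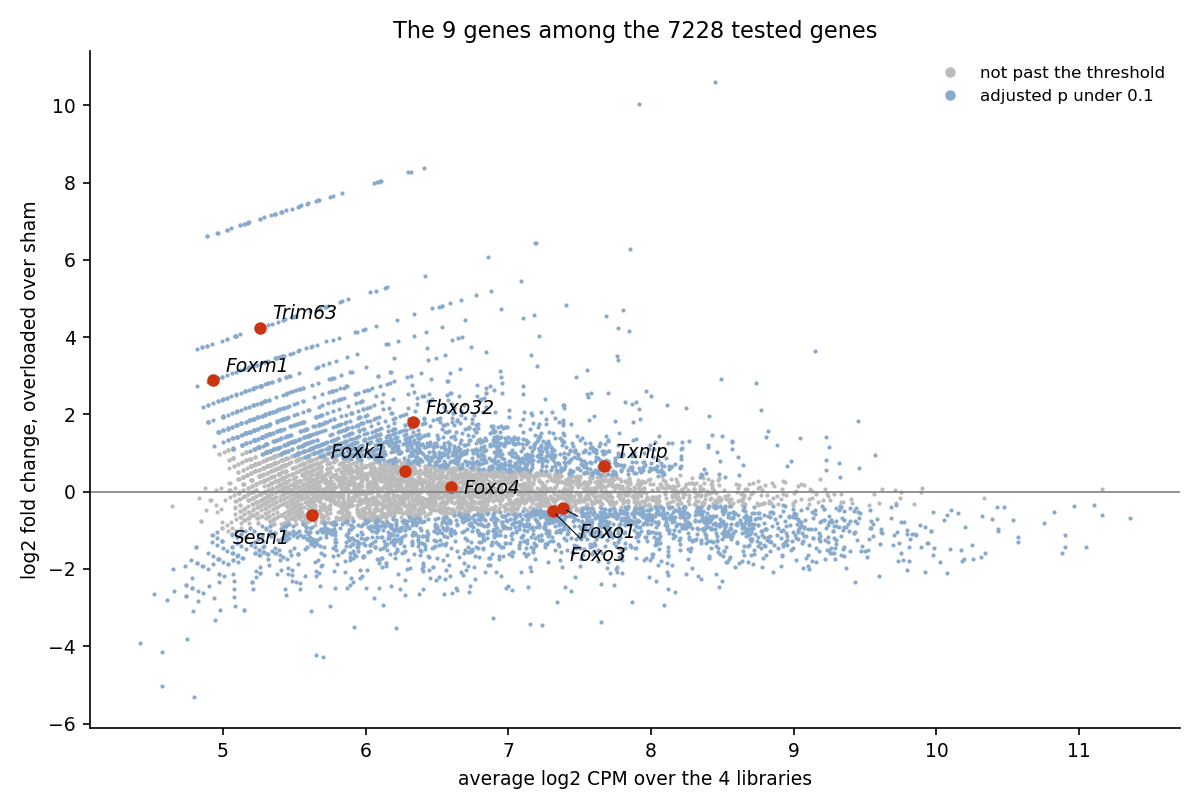
Log2 fold change of each of the 7228 genes tested against its average level (log2 CPM), with the 9 genes labelled. Trim63 and Foxm1 lie toward the low end of the level axis. Trim63, Foxm1 and Fbxo32 have log2 fold changes of 4.24, 2.89 and 1.80, and the 3 Foxo genes lie between -0.50 and 0.11.

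Fbxo32 and Trim63 encode atrogin-1 and MuRF1, muscle ubiquitin ligases that FOXO is known to switch on when muscle wastes. Txnip encodes a thioredoxin-binding alpha-arrestin that limits glucose uptake, and Sesn1 a sestrin that holds back mTORC1 when leucine is low. RefSeq promoter windows (GRCm38.p6, 250 bases before to 50 after the start) were at hand for 5 of the 9 genes (Foxo1, Foxo3, Trim63, Txnip and Sesn1). The FOXO element TGTTTAC, searched on both strands (GTAAACA on the other), is in 3.65% of all 32851 windows. It was found in a window of Trim63, Txnip and Sesn1 and not in those of Foxo1 and Foxo3. The carbohydrate response element (ChoRE, a pair of E-boxes with a short spacer), also searched on both strands and not overlapping the FOXO element, is in 0.365% of windows and was found for Txnip. The stretches with the elements are shown because they are where these targets hold the letters FOXO binds, with the elements in capitals. A match is a description of letters and not a measured binding site.
Trim63 (GRCm38.p6 chr4:134314870-134315119, plus strand, the 250 bases before the start, FOXO element from base -194): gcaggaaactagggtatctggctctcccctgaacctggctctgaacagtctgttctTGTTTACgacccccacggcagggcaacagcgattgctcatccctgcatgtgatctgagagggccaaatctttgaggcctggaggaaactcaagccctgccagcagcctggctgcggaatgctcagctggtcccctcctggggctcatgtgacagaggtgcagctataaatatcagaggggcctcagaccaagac
Txnip (GRCm38.p6 chr3:96557707-96557956, plus strand, the 250 bases before the start, FOXO element from base -121 on the minus strand and carbohydrate response element from base -85): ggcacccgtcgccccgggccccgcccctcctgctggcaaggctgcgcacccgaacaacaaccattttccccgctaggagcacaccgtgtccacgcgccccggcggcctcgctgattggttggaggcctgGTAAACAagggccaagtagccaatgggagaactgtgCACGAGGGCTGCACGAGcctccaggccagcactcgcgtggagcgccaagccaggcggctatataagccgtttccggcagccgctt
Sesn1 (GRCm38.p6 chr10:41810585-41810614, plus strand, 30 bases around the FOXO element that begins at base 22 after the start of the first of 2 windows): gaaccttctacTGTTTACcagccttttggg

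Of these 3 genes with the element, Trim63 and Txnip rose and Sesn1 did not pass, while 25.8% of all genes tested rose. Trim63 passed the filter through the overloaded libraries alone.

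Trim63 (chr4:134315120-134329629, plus strand) had 1 and 0 UMIs in the sham libraries and 14 and 29 in the overloaded libraries. In CPM this was 4.35 and 0 against 36.4 and 58.7, where the 0 allows up to 13.6 CPM, so that the gene was at or near the floor in sham and well above it in both overloaded libraries. The ratio of normalized UMIs was 22.1 (exact binomial 95% interval 3.75 to 891, counting error only). The fitted log2 fold change was 4.24 ± 0.81 (SE; edgeR adjusted p = 5.0e-04), and it moved to 3.39 without sham library 2 and to 7.17 without sham library 1, which held the only sham molecule. With offsets fitted against mean log abundance it was 0.88 and the call was lost (edgeR adjusted p = 0.64).

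Fbxo32 (chr15:58175879-58214932, minus strand) had 11 and 2 UMIs in sham and 36 and 53 in overloaded libraries. The sham libraries disagreed, at 47.9 and 9.06 CPM, and both lay below the overloaded libraries at 93.6 and 107 CPM. The means were 28.5 ± 27.5 and 100.5 ± 9.70 CPM (SD, n = 2 each), with a log2 fold change of 1.80 ± 0.45 (SE; edgeR adjusted p = 0.0038). The size rests on the sham library used, at 1.07 without sham library 2 (edgeR adjusted p = 0.0518) and 3.43 without sham library 1.

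Both ligases are genes of differentiated muscle, and markers of the myofibre moved the same way. Of 12 myofibre markers, 9 were tested and all 9 rose, 7 of which had passed the filter in both groups (median log2 fold change 1.12), beside 25.8% of all genes tested and 708 of the 4745 that passed in both. They summed to 2076 and 1142 CPM in sham and 3911 and 3651 CPM in overloaded libraries. Acta1, skeletal alpha-actin and the most abundant of them, had 120 and 66 UMIs in sham and 299 and 342 in overloaded libraries, with a log2 fold change of 0.83 that was 0.49 without sham library 2 (edgeR adjusted p = 0.165) and 1.29 without sham library 1. Myh1 and Myh2, myosins of mature fast fibres, were at or near 0, with 0 UMIs in 3 libraries and 2 each in overloaded library 2. Myh4, a further myosin among the 12, was not at 0 in both sham libraries, and its values are not reported here. Sham library 2, with the fewest myofibre marker UMIs (252, against 477, 1504 and 1803), also had the fewest Fbxo32 UMIs.

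Per 1000 myofibre marker UMIs, Fbxo32 had 23.1 and 7.94 UMIs in sham and 23.9 and 29.4 in overloaded libraries, so that sham library 1 and overloaded library 1 were alike on this scale. Trim63 had 2.1 and 0 in sham and 9.31 and 16.1 in overloaded libraries, where the sham values rest on 1 and 0 UMIs. As counted, both overloaded values were higher. The upper limit allowed for a 0 would put that sham library above overloaded library 1, so that a difference on this scale was not shown. These ratios have no test, and the part of myofibre RNA in the rise of either gene was not tested.

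Among the 4715 genes with at least 20 UMIs per library on average, those whose pattern over the 4 libraries was most like that of Trim63 were Actc1 (cardiac alpha-actin), Hspb6 (a small heat shock protein of muscle) and Smpx (a small muscle protein). Their root mean square differences from it, in log2 CPM centred on each gene's mean, were 0.157, 0.194 and 0.209. Actc1 had 29 and 13 UMIs in sham and 230 and 357 in overloaded libraries, Hspb6 had 9 and 3 against 51 and 96, and Smpx had 2 and 1 against 29 and 64. They were chosen for this likeness, and the sham part of the pattern of Trim63 rests on 1 UMI.

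Other genes of muscle wasting were listed apart from the ligases. Of 20 listed genes of muscle atrophy, apart from the 9 genes, 19 were in the count table and 15 were tested, and 1 rose, 9 fell and 5 did not pass (median log2 fold change -0.69, beside 0.05 over all genes). Of the 11 that passed the filter in both groups, 8 fell, beside 1560 of all 4745 such genes, of which 708 rose. Trim32, a ligase of sarcomere proteins that passed the filter through the overloaded libraries alone, went from 6 and 5 to 16 and 29 UMIs (1.05 ± 0.45, SE; edgeR adjusted p = 0.0675), a call that was lost with DESeq2 (adjusted p = 0.39) and without either sham library or overloaded library 2 (edgeR adjusted p = 0.139, 0.211 and 0.357). With no scaling 6 of the listed genes rose and 2 fell, beside 4481 and 331 of all 7228 genes. Sqstm1, the autophagy receptor p62, went from 354 and 294 to 208 and 261 UMIs and fell by 1.43 ± 0.16 on the log2 scale (edgeR adjusted p = 2.9e-06). Sqstm1 had fewer UMIs per tube as well as lower CPM in both overloaded libraries, the opposite of Fbxo32 and Trim63 on either scale.

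Txnip (chr3:96557957-96561883, plus strand) was the most abundant of the 4 targets. It had 39 and 27 UMIs in sham and 91 and 112 in overloaded libraries, or 170 and 122 against 237 and 227 CPM, with both overloaded libraries above both sham libraries. Mean levels were 146 ± 33.6 CPM in sham and 232 ± 6.93 CPM in overloaded libraries (SD, n = 2 each), and Txnip rose with a log2 fold change of 0.66 ± 0.22 (SE; 95% interval 0.21 to 1.11; edgeR adjusted p = 0.0195). The call was lost without sham library 2 (0.45, edgeR adjusted p = 0.22) and with DESeq2 (adjusted p = 0.212).

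Of 15 partners of TXNIP and related alpha-arrestins, 9 were tested, and 1 rose, 5 fell and 3 did not pass (median log2 fold change -0.63), beside 25.8% that rose and 26.3% that fell of all genes tested. With no scaling 3 rose and 2 fell, beside 4481 and 331 of all 7228 genes. Txn2, the mitochondrial thioredoxin, rose by 0.91 ± 0.28 (SE; edgeR adjusted p = 0.0145), with 40 and 16 UMIs in sham and 77 and 129 in overloaded libraries. It was 0.42 without sham library 2, where the call was lost (edgeR adjusted p = 0.251), and 1.68 without sham library 1, and DESeq2 gave an adjusted p of 0.124. Txnrd1, which reduces thioredoxin, went from 195 and 183 to 120 and 161 UMIs and fell by 1.39 ± 0.16 on the log2 scale (edgeR adjusted p = 3.8e-06). Arrdc3, an alpha-arrestin of the same family as Txnip, fell by 0.82 ± 0.19 (edgeR adjusted p = 0.0019), with 65 and 66 against 64 and 80 UMIs, and so moved opposite to Txnip with TMM. With no scaling the log2 fold change of Arrdc3 was 0.14.

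Leukocytes, which also make Txnip, lack the Pax7-driven YFP that the cells were sorted on, yet their marker RNA was close to 0 in sham and present in overloaded libraries. The 12 leukocyte markers summed to 2 and 6 UMIs in sham and 72 and 171 in overloaded libraries, and 9 of the 12 were at 0 in both sham libraries. Lyz2, the most abundant, had 0 and 0 against 17 and 38 UMIs. Its part in the rise of Txnip was not tested.

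Sesn1 (chr10:41809935-41908424, plus strand) had 11 and 14 UMIs in sham and 15 and 17 in overloaded libraries. In CPM both overloaded libraries, at 39.0 and 34.4, were below both sham libraries, at 47.9 and 63.4. The log2 fold change was -0.60 ± 0.39 (SE; 95% interval -1.42 to 0.22; edgeR adjusted p = 0.223) and did not pass. It passed with offsets fitted against abundance, at -0.88 (edgeR adjusted p = 0.0838). The overlapping gene 9930024M15Rik, on the same strand, had 2 and 2 against 6 and 7 UMIs. The patterns most like that of Sesn1 were those of Tab2, Iars and Rnf11, with root mean square differences of 0.0218, 0.0249 and 0.0257 in centred log2 CPM.

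Of the other sestrins, 1 passed the test, and no difference between sestrins was tested. Sesn2, the sestrin induced by stress, went from 18 and 25 to 10 and 10 UMIs and fell by 2.05 ± 0.39 on the log2 scale (SE; edgeR adjusted p = 4.8e-04), having passed the filter through the sham libraries alone. Sesn3, a known FOXO target, had 16 and 20 against 31 and 33 UMIs and a log2 fold change of -0.13 ± 0.32 (edgeR adjusted p = 0.772). A list of 16 held sestrin and GATOR genes, which sense amino acids for mTORC1, and other genes such as Keap1. Of these 16, 8 were tested, and 3 rose, 1 fell and 4 did not pass (median log2 fold change -0.01). Among all genes tested, 25.8% were higher and 26.3% lower. Sec13, which also coats secretory vesicles, rose by 1.02 ± 0.20 (edgeR adjusted p = 7.2e-04) and Rragc, a GTPase that brings mTORC1 to the lysosome, by 0.99 ± 0.34 (edgeR adjusted p = 0.026). The call of Rragc was lost without sham library 1 (0.68, edgeR adjusted p = 0.204), without overloaded library 2 (0.83, edgeR adjusted p = 0.136) and with DESeq2 (adjusted p = 0.229).

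Other genes known as FOXO targets, 30 in number, were counted apart from the 9 genes. Of 22 tested, 4 rose, 10 fell and 8 did not pass (median log2 fold change -0.31). Among the 18 that passed the filter in both groups, 3 rose and 9 fell, while among all 4745 such genes 708 rose and 1560 fell. Falls thus outnumbered rises among all such genes too, and the difference between the list and all genes was not tested. With no scaling 12 rose and 2 fell, beside 4481 and 331 of all 7228 genes. Ccng2, an atypical cyclin that slows the cell cycle, rose by 0.61 ± 0.25 (SE; edgeR adjusted p = 0.0598), with 38 and 21 UMIs in sham and 66 and 111 in overloaded libraries. Cited2, a transcriptional co-regulator, rose by 0.52 ± 0.24 (edgeR adjusted p = 0.0906), with 34 and 33 against 100 and 85 UMIs. Both calls were lost with DESeq2 (adjusted p = 0.319 and 0.363). That of Ccng2 was also lost without sham library 2 (0.28, edgeR adjusted p = 0.478) and without overloaded library 2 (0.39, edgeR adjusted p = 0.316), and it was 1.07 without sham library 1. That of Cited2 was lost without overloaded library 1 (0.22, edgeR adjusted p = 0.545) and without either sham library (edgeR adjusted p = 0.169 and 0.154), and it was 0.80 without overloaded library 2.

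Gadd45a, a stress gene of growth arrest, fell by 0.97 ± 0.16 on the log2 scale (SE; edgeR adjusted p = 1.2e-04), with 182 and 161 UMIs in sham and 150 and 190 in overloaded libraries. The fall was lost with offsets fitted against abundance (-0.16, edgeR adjusted p = 0.361) and with no scaling (-0.013, edgeR adjusted p = 0.954). Irs2, the insulin receptor substrate, and Pdk4, which turns cells from glucose to fat, were lower in CPM and also had fewer UMIs in both overloaded libraries. Irs2 went from 126 and 141 to 77 and 86 UMIs (-1.67 ± 0.18; edgeR adjusted p = 1.6e-06), and Pdk4 from 115 and 113 to 69 and 110 UMIs (-1.32 ± 0.18; edgeR adjusted p = 1.8e-05). Eif4ebp1, a target that passed the filter in both groups, went the other way. It rose by 1.07 ± 0.23 (edgeR adjusted p = 0.0012), with 25 and 21 UMIs in sham and 79 and 110 in overloaded libraries. Cdkn1a, the inhibitor p21, fell by 0.71 ± 0.15 with TMM (edgeR adjusted p = 0.0014) but was higher, at 0.44, with offsets fitted against abundance (edgeR adjusted p = 0.0068), so that its direction depends on the scaling.

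**Figure D4:**
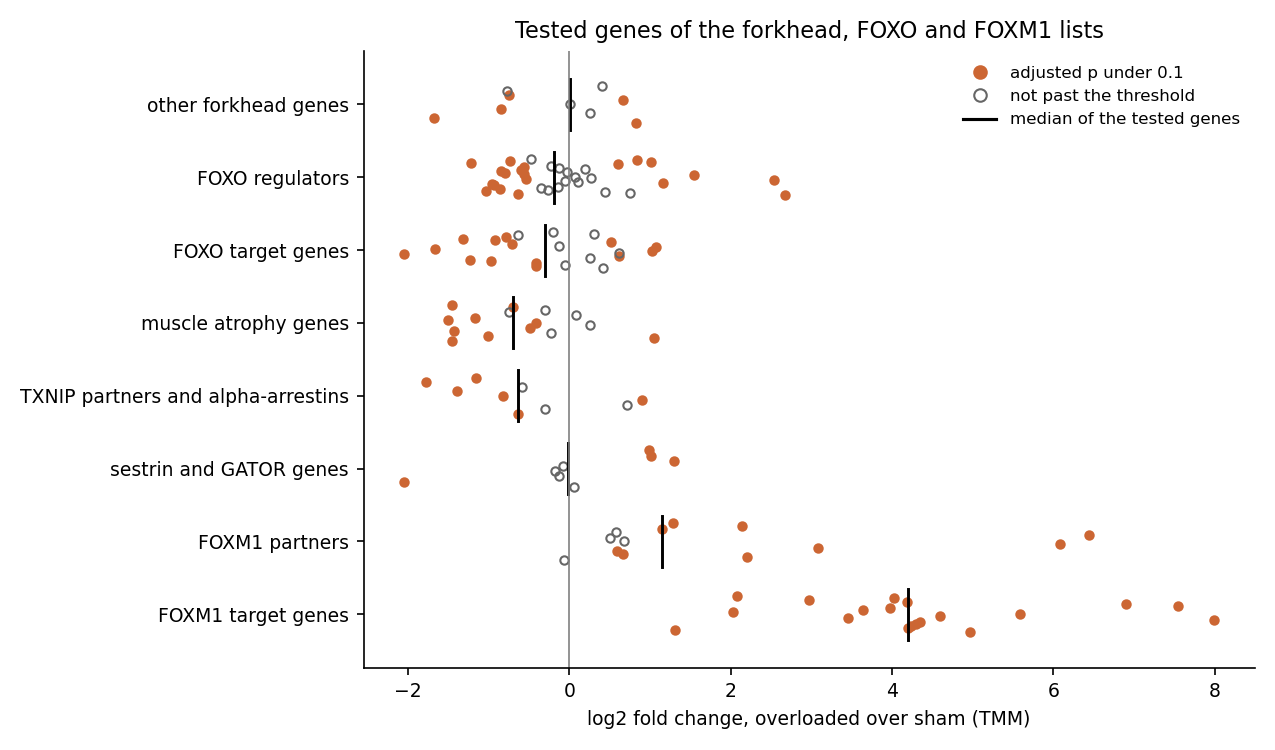
Log2 fold changes with TMM of the tested genes of the 8 forkhead, FOXO, FOXM1 and related lists, 1 point per gene (filled where the adjusted p is under 0.1), with a bar at the median of each list. Of the lists drawn, FOXM1 targets have the highest median (4.20, all passing the filter through overloaded libraries alone) and muscle atrophy genes the lowest (-0.69).

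Genes that act on FOXO proteins, such as kinases, phosphatases and ligases, moved both ways. Of 38 listed, 34 were tested, and 7 rose, 13 fell and 14 did not pass (median log2 fold change -0.18). Of all genes tested, 25.8% rose and 26.3% fell. With no scaling 20 rose and 0 fell, beside 4481 and 331 of all 7228 genes. Of the 26 that passed the filter in both groups, 2 rose and 13 fell, beside 708 and 1560 of all 4745 such genes. The other genes that rose passed it through the overloaded libraries alone. Akt1, the kinase that sends FOXO out of the nucleus, went from 52 and 37 to 127 and 186 UMIs and rose by 0.84 ± 0.20 on the log2 scale (SE; edgeR adjusted p = 0.0023). Mdm2, a ubiquitin ligase, rose by 0.61 ± 0.20 (edgeR adjusted p = 0.0195), with 37 and 44 against 111 and 129 UMIs, a call lost without sham library 1 (0.46, edgeR adjusted p = 0.191) and with DESeq2 (adjusted p = 0.212). Ppp2ca, a phosphatase subunit that acts against AKT, fell by 0.86 ± 0.16 (edgeR adjusted p = 3.7e-04), with 161 and 156 against 153 and 188 UMIs, and this was lost with offsets fitted against abundance (-0.069, edgeR adjusted p = 0.72). Sgk1, a kinase related to AKT, fell by 0.53 ± 0.16 with TMM (edgeR adjusted p = 0.0118) but was higher, at 0.37, with offsets fitted against abundance (edgeR adjusted p = 0.0328) and, at 0.42, with no scaling (edgeR adjusted p = 0.0376).

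The labelled cell type was checked against its markers. All 10 MuSC markers had UMIs in every library, and they summed to 7591 and 6573 CPM in sham and 5572 and 4925 CPM in overloaded libraries. With TMM 5 of the 10 fell, 2 rose and 3 did not pass. All 10 passed the filter in both groups, and of all 4745 such genes 1560 fell and 708 rose. Pax7 itself had 118 and 107 UMIs in sham and 108 and 137 in overloaded libraries, counts not scaled to the larger overloaded totals. Scaled to normalized CPM, Pax7 was lower in both overloaded libraries than in both sham libraries. Of 15 markers of quiescence, 14 were tested, and 12 fell, 1 rose and 1 did not pass (median log2 fold change -0.88), against 6 lower and 2 higher with offsets fitted against abundance and 4 lower and 2 higher with no scaling. Over all genes tested, 1898 were lower and 1868 higher with TMM, 1694 and 1728 with these offsets, and 331 and 4481 with no scaling. Their most abundant gene, Sdc4, the syndecan of satellite cells, had 422 and 284 against 375 and 345 UMIs, and its log2 fold change was -0.91 with TMM and 0.17 with offsets fitted against abundance, which no test called.

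The response of MuSCs to dissociation moved with the surgery as well. All 15 of its genes were tested and all 15 fell (median log2 fold change -1.53), beside 26.3% of all genes tested and 1560 of the 4745 that passed the filter in both groups. With no scaling 10 fell and 2 rose, beside 331 and 4481 of all 7228 genes. Their sum was 19370 and 19846 CPM in sham and 7532 and 7209 CPM in overloaded libraries. Junb, an immediate early gene, went from 445 and 460 to 261 and 277 UMIs. Hspa1b, a heat shock gene and the most abundant, had 610 and 588 against 495 and 581 UMIs, and was not lower with offsets fitted against abundance (0.15). Gadd45a, Cdkn1a and Irs2 are genes that such stress can also induce, and the part of this response in their falls, or in that of Foxo3, was not tested.

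**Figure D5:**
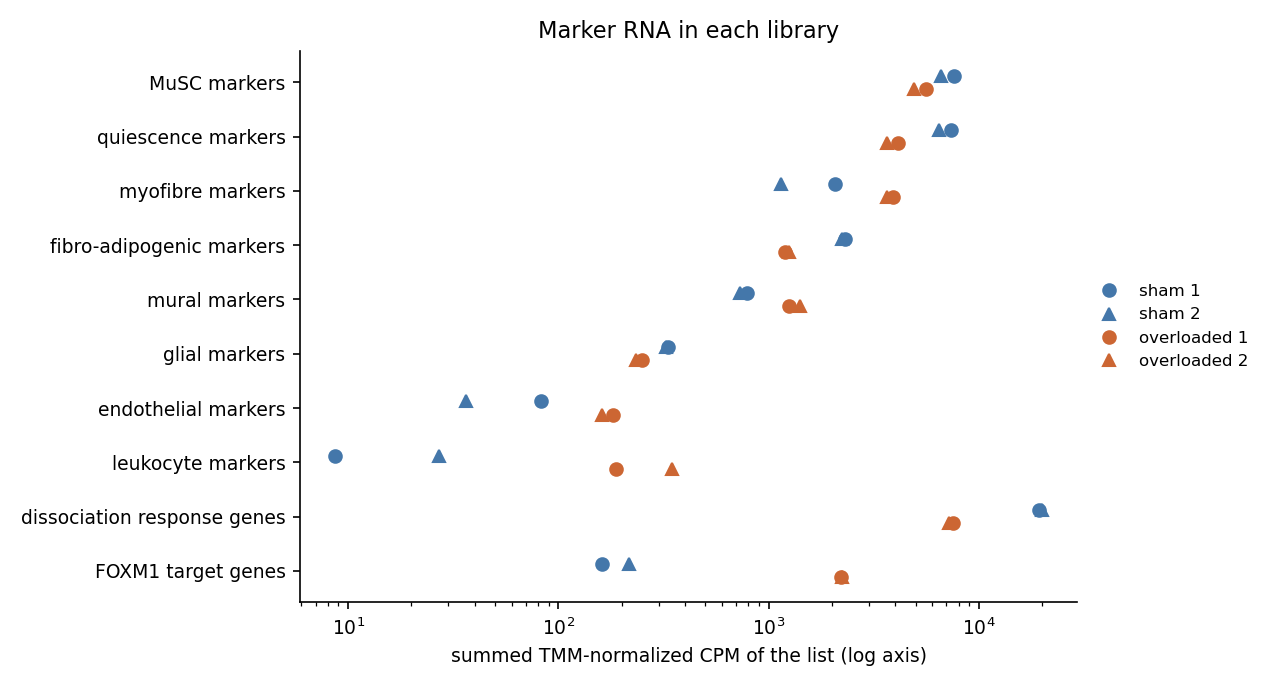
Summed level of each marker list in each library (normalized CPM on a log axis, 1 point per library). Myofibre, leukocyte, endothelial and mural markers and FOXM1 target genes are higher in both overloaded libraries. MuSC, quiescence, fibro-adipogenic and glial markers and genes of the dissociation response are lower in both.

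Other cell types that a sort could hold were checked in the same way. Endothelial markers summed to 82.7 and 36.2 CPM in sham and 182 and 162 CPM in overloaded libraries, with Ly6c1 at 2 and 0 against 27 and 30 UMIs and the defining genes Egfl7 and Cldn5 at 0 in both sham libraries and at 7 and 4 UMIs and 1 and 1 UMIs in the overloaded libraries. Mural markers summed to 788 and 729 against 1243 and 1405 CPM, mainly from Acta2, an actin that activated myogenic cells also make. Fibro-adipogenic markers summed to 2307 and 2242 against 1193 and 1245 CPM with TMM, though their UMIs overlapped (530 and 495 against 459 and 615). Of 4 tested, 3 fell and 1 rose, beside 26.3% lower and 25.8% higher among all genes tested. The 1 that rose passed the filter through the overloaded libraries alone. The most abundant marker was Gsn, whose fall was lost with offsets fitted against abundance (-0.083, edgeR adjusted p = 0.663) and with no scaling (-0.12, edgeR adjusted p = 0.541). The defining gene Pdgfra had 2 UMIs in overloaded library 1 and 0 in the other libraries. Glial markers came to 331 and 326 against 250 and 233 CPM, nearly all from Pmp22, with Mbp at 0 in both sham libraries and at 1 UMI in each overloaded library.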

How the data were processed

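The authors extracted UMIs with UMI-tools (version 1.0.0), aligned reads to GRCm38 with HISAT2 (version 2.1.0) and assigned them to genes with featureCounts (version 1.6.4), per the paper's methods and the submitters' processing notes, and deposited raw UMI counts per gene and library. The annotation release and strand setting were not given in the sources used here, so that reads of overlapping genes cannot be told apart. All 19353 gene identifiers matched GENCODE vM21, and 19331 had the same name.

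Genes were kept by filterByExpr (minimum count 10, minimum total 15). Library sizes were the UMIs in the 7228 genes kept (252687, 243135, 355329 and 441218), scaled by TMM factors of 0.909, 0.908, 1.08 and 1.12. The test was glmQLFTest after glmQLFit in edgeR (version 4.0.16, R version 4.3.3), with Benjamini-Hochberg adjustment over all genes kept and the threshold of 0.1 that the study used with DESeq2. The common biological coefficient of variation was 9.5%. An exact permutation test over samples was not used, since with 2 against 2 its smallest two-sided p is 0.333. DESeq2 (version 1.42.0) and limma-voom (limma version 3.58.1) were alternatives, with other scalings, filters, thinning to the smallest library, a replicate block and each library left out. Summaries used Python version 3.11.15, matplotlib version 3.10.9, pandas version 2.3.3, numpy version 2.4.6 and scipy version 1.17.1.

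The 9 genes, the gene lists and the tests were chosen with earlier results of these data known. Named are the 9 genes, of each list up to 2 of the most abundant genes called higher and up to 2 called lower, the most abundant gene of each marker list, and the genes whose pattern was most like that of the genes with the largest positive and the largest negative log2 fold change of the 9. Foxo6, Foxp2, Sesn3, Irs2, Pdk4, Eif4ebp1 and Pax7 fall outside that rule and were picked with their values known, as were those markers named only for being at or near 0. Some genes that this rule or the marker lists hold are not reported here.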

Additional observations from a re-analysis of the deposited data

How the results depend on the processing

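The labels number the libraries of each group, but the deviations of same-numbered libraries were not correlated (r = -0.03), and with the replicate block 4 of the 9 genes were higher and 1 lower, and 1806 of all genes were higher and 1864 lower. Of the 9 genes, 2 were higher with DESeq2 and 2 with offsets against mean log abundance, 5 with library sizes alone, 6 with no scaling, and 3 to 4 with 1 library left out. The gene lower was Foxo3, but with offsets against abundance it was Sesn1 and without overloaded library 2 it was Foxo1, and 0 were lower with library sizes alone, no scaling, DESeq2, no filter, an adjusted p of 0.05, thinned counts and offsets against mean log abundance, while 2 were lower with the at-least-10 filter and with library totals over all genes, and 0 to 1 with 1 library left out. Over all genes, 4481 were higher and 331 lower with no scaling, 762 and 1049 with DESeq2, 2694 and 1351 with library sizes alone, and 1498 and 1558 with offsets against mean log abundance. Offsets against mean log abundance and library totals over all genes were chosen after seeing the data.

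With no scaling, log2 fold changes changed sign for Foxo1 (0.54), Foxo3 (0.45), Sesn1 (0.35), Arrdc3 (0.14), Cdkn1a (0.26), Foxn3 (0.11), Foxp4 (0.21), Iars (0.38), Pmp22 (0.46), Ppp2ca (0.11), Rnf11 (0.43), Sdc4 (0.028), Sgk1 (0.42) and Tab2 (0.38), which follows from leaving the larger overloaded totals in. With offsets against abundance they did so for Foxo4 (-0.020), Cdkn1a (0.44), Hspa1b (0.15), Rnf11 (0.077), Sdc4 (0.17) and Sgk1 (0.37), and with offsets against mean log abundance for Foxm1 (-0.062), Cdkn1a (0.39), Hspa1b (0.079), Rnf11 (0.10), Sdc4 (0.12) and Sgk1 (0.35), where the cause was not tested. The latter offsets also ended the call of Trim63 (0.88). Foxo4 was at -0.20 in thinned counts, -0.09 without sham library 1 and -0.41 without overloaded library 2. Depth limits Foxm1 and Trim63 most, with 2 UMIs and 1 UMI in the sham libraries together.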
